A study of Mus musculus with 13 samples.

Results

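Aldehyde dehydrogenases oxidise aldehydes to carboxylic acids, with NAD or NADP as the acceptor. The genes described here are the 10 named Aldh1a1, Aldh1a3, Aldh1a7, Aldh2, Aldh3a1, Aldh3a2, Aldh3b1, Aldh4a1, Aldh7a1 and Aldh9a1, which cover enzymes known as stem cell markers and enzymes of detoxification. They were taken by symbol from a table of 23845 genes, which holds 20 genes of the family in all. RNA-seq had been made from 13 cell lines grown out of primary mammary tumours of FVBN/J mice, and the study concerned JNK in breast cancer driven by HER2. Of these, 6 lines were labelled wild type (WT) and 7 were labelled JNK knockout. JNK is the family of c-Jun N-terminal kinases. All lines were kept on standard dishes in medium that held EGF at 20 ng/ml, insulin at 10 µg/ml and serum at 10%. The labels give neither the age of the mice, the promoter that drove HER2 or any Cre, the JNK genes or exons removed, nor the passage. They name no batch either. Each library is a separate line, numbered here as a replicate within its group in the order of deposition. WT replicates 4 and 5 have titles that share a number, and the labels do not say whether they came from the same mouse. If lines share a mouse, the p-values here reflect the spread among lines and not among mice. Titles of the groups start with different letters, and whatever handling goes with those letters cannot be told apart from genotype.

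Members of the family differ in substrate and in place. ALDH1A1 and ALDH1A3 are cytosolic enzymes that make retinoic acid from retinaldehyde, and high ALDH1 activity is used to enrich stem-like cells from mammary epithelium and breast cancer. ALDH2 is the mitochondrial enzyme that clears acetaldehyde. ALDH3A1 and ALDH3A2 act on aldehydes from lipids, ALDH3A1 being known from cornea and from induction by the aryl hydrocarbon receptor. ALDH4A1 is the mitochondrial enzyme of the last step of proline breakdown. ALDH7A1 acts in lysine breakdown and ALDH9A1 on betaine and amine aldehydes.

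Depth was similar over the lines, with expected counts (reads assigned to a gene by a model) summing to between 38298602 and 46689809 per line. The label check on the kinase genes held in each line. Mapk8 lay between 24.0 and 37.3 CPM in WT lines and between 4.33 and 8.33 CPM in knockout lines. Mapk9 lay between 55.0 and 73.1 CPM in WT lines and between 8.90 and 24.7 CPM in knockout lines. CPM (read counts scaled to library size) are given after scaling of the libraries by TMM, a trimmed mean of ratios. The labelled origin was checked on marker genes. The epithelial markers (5 genes, among them Epcam, Krt8 and Krt18) summed to between 5680 and 7463 TPM in WT and to between 1123 and 3559 TPM in knockout lines. TPM are scaled for gene length as well as for library size. Luminal epithelial markers (9 genes), which share Krt8, Krt18 and Krt19 with that list, summed to 4400 to 6607 TPM in WT lines. In knockout lines they summed to 1062 to 3232 TPM. Basal epithelial markers (8 genes) went the other way, from 69.3 to 310 TPM in WT lines and from 578 to 23391 TPM in knockout lines. The epithelial sum is led by the luminal keratins Krt8 and Krt18. Its members Epcam and Cdh1, which are not on the luminal list, also had lower means in knockout lines. Epcam averaged 805 TPM in WT and 334 TPM in knockout lines, and Cdh1 309.5 and 160 TPM. Neither passed the test between the groups given below (edgeR adjusted p = 0.17 and 0.20). Of the 6 endothelial markers none passed the filter on low counts, nor did any of the 6 adipocyte markers. Their summed levels were at most 1.14 and 3.44 TPM. Leukocyte markers (7 genes in the table) summed to between 3.68 and 33.6 TPM in WT lines and between 3.57 and 18.6 TPM in knockout lines, with Ptprc at most 0.178 CPM and Cd68 between 2.16 and 18.7 CPM. Fibroblast markers (8 genes) summed to between 4.52 and 161 TPM in WT lines, with at most 17.4 TPM outside WT replicate 3, and to between 0.78 and 15.9 TPM in knockout lines. Knockout replicate 2 stood apart, with 40.8 CPM of Epcam against at least 266 CPM in the other knockout lines, and with 2580 CPM of the smooth muscle actin gene Acta2.

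Aldh1a1 and Aldh1a7 are shown first, since they are neighbours of similar sequence and only Aldh1a1 passed the test between the groups. On the GRCm38 genome Aldh1a1 lies at chr19:20492583-20643463 on the plus strand, and Aldh1a7 at chr19:20692953-20727556 on the minus strand, 49489 bases away. Their coding sequences, each of 1503 bases in GENCODE M21, were identical at 91.6% of positions. The first 90 coding bases, with the 5 differing bases in capitals, read as follows.
Aldh1a1: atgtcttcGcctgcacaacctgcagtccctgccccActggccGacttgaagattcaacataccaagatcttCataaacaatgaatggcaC
Aldh1a7: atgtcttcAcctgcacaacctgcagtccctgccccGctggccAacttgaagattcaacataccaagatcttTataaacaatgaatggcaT
The longest identical run in the coding alignment was 100 bases. No window of 150 bases, the read length, was common to both transcripts, and 151 of 2004 windows of 50 bases were. Every expected count of both genes was a whole number (within 0.005) in all 13 lines. By contrast Aldh3b1, with 83.1% coding identity to the nearby Aldh3b2, had a whole number in 1 of 13 lines, so its reads were partly shared out by the model. That pair too had no window of 150 bases in common, and it shared 122 of 1875 windows of 50 bases. Aldh3b3, which starts between Aldh3b1 and Aldh3b2 (chr19:3958732-3972419), has no deposited counts, and its sequence was not compared. With which genes the reads of Aldh3b1 were shared was not tested.

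The sequence before the start sites of Aldh1a1 and Aldh1a7 was also alike. The 250 bases before each start, from RefSeq on GRCm38.p6, are given to show where the neighbours resemble each other, together with those of Aldh4a1, the other member that passed the test. Capitals mark matches, on either strand, to CCAAT, to GCGTG (the core of the aryl hydrocarbon receptor site), to TATAAA, to TGANTCA (AP-1, the site of JUN and FOS proteins) or to TGACNNNGC (the core of the antioxidant response element).
Aldh1a1 (chr19:20601718-20601967, plus strand): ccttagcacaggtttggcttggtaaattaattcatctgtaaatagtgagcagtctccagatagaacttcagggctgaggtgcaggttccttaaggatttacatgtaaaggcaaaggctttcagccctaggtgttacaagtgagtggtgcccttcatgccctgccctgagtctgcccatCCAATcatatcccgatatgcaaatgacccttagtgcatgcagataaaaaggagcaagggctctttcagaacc
Aldh1a7 (chr19:20727557-20727806, minus strand): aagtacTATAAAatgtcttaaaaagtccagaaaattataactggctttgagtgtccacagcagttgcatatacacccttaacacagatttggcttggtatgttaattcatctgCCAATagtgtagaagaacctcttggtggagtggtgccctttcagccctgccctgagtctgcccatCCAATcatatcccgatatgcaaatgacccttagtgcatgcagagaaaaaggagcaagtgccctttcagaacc
Aldh4a1 (chr4:139622644-139622893, plus strand): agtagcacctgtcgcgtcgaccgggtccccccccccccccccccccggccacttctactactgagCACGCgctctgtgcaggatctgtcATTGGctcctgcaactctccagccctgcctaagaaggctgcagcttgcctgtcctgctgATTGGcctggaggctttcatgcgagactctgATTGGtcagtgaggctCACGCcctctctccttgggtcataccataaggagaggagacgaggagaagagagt
In the last 75 bases before the start Aldh1a1 and Aldh1a7 were identical at 72 positions. Both held CCAAT 72 bases before the start. The Aldh1a1 window belongs to the start of the transcript that the deposited table lists, which lies inside the longer RefSeq gene. The Aldh4a1 window held CCAAT 3 times and GCGTG 2 times, all on the opposite strand. Over all 32851 promoter windows of this length in the table, 33.8% held CCAAT, 28.2% GCGTG, 12.4% TATAAA, 10.2% TGACNNNGC and 6.75% TGANTCA. RefSeq windows were found for 6 of the 10 members, and TGANTCA was in none of these 6 windows. Those not matched were Aldh1a3, Aldh2, Aldh3a1 and Aldh7a1.

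The family was compared between knockout and WT lines with edgeR's quasi-likelihood test over all genes, with Benjamini-Hochberg adjustment and a threshold of 0.05 on adjusted p. All 10 members passed the filter on low counts. Of them 2 rose in knockout lines (Aldh1a1 and Aldh4a1), 0 fell and 8 did not pass. Over all 13058 genes tested, 8.51% were called, 4.33% as higher and 4.17% as lower. At an unadjusted edgeR p under 0.05, 3 members were higher (Aldh2 added) and 1 lower (Aldh3a2), where 13.7% of all genes were higher and 12.6% lower. With DESeq2 at an adjusted p under 0.05 the members' counts were also 3 and 1, where 8.7% of genes with an adjusted p were higher and 7.52% lower. The median log2 fold change, knockout minus WT, was 0.62 over the members and 0.01 over all genes. With 1 line left out at a time the number of members called higher was 1 or 2, as Aldh4a1 lost its call in 10 of 13 such fits. It was 0 with limma-voom. Of all calls, 50.9% were higher in the reported fit and 22.3% in limma on log2(TPM + 1), where the median over all genes was -0.19. The members' direction in TPM is relative to that shift.

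**Figure D1:**
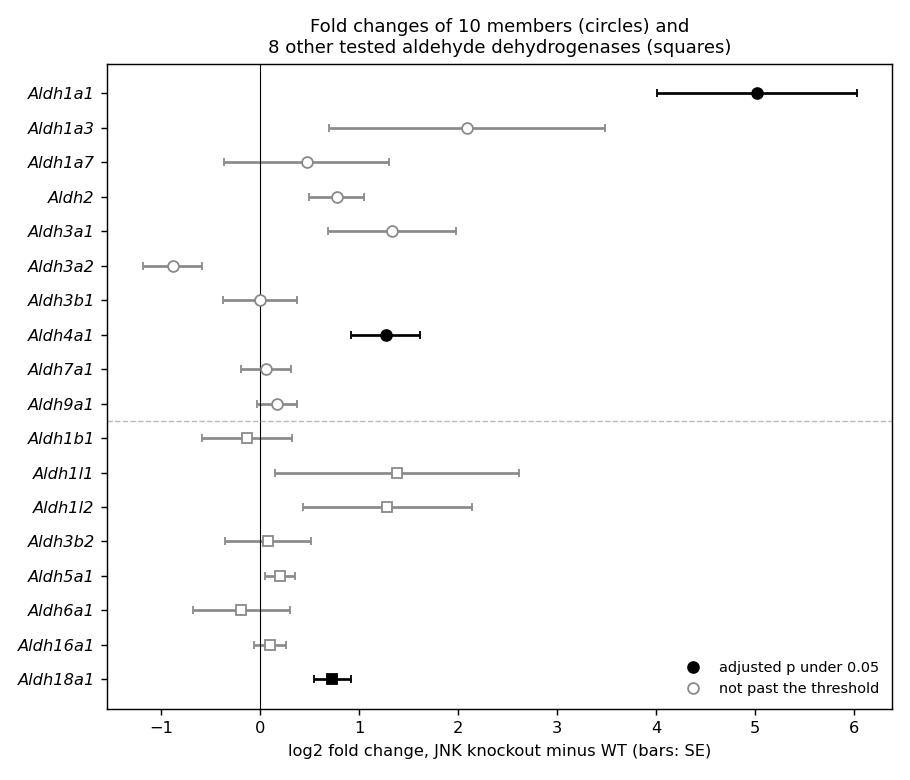
Log2 fold change (knockout minus WT, horizontal axis) with its standard error as a bar, for the 10 members (circles) and the 8 other tested aldehyde dehydrogenases (squares). Filled symbols, at Aldh1a1, Aldh4a1 and Aldh18a1, mark an adjusted p under 0.05; the largest value is 5.02 for Aldh1a1.

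Of the Aldh1a genes, only Aldh1a1 passed the test. It was 0.378, 0.211, 0.647, 0.616, 0.224 and 0.284 CPM in WT replicates 1 to 6, from 9 to 28 reads per line. In knockout replicates 1 to 7 it was 6.59, 6.37, 0.986, 2.18, 11.3, 1.64 and 60.9 CPM, from 41 to 2742 reads. The groups did not overlap, and the nearest lines were knockout replicate 3 and WT replicate 3. It was the 1 member whose groups did not overlap. Over all genes tested the groups did not overlap for 4.05%, with knockout lines higher for 2.08% and lower for 1.97%. The log2 fold change of Aldh1a1 was 5.02 (SE 1.01, edgeR adjusted p = 0.011), with a WT mean of 0.393 ± 0.194 CPM (SD, n = 6) and a knockout mean of 12.8 ± 21.5 CPM (SD, n = 7). The size rested in part on knockout replicate 7, and without it the log2 fold change was 3.62 with the call kept. Aldh1a1 was called higher whichever of the 13 lines was omitted, with adjusted p from 0.0091 to 0.027. With limma-voom it was not called (log2 fold change 3.84, adjusted p = 0.089).

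Aldh1a3 encodes the other main retinaldehyde dehydrogenase of this set (chr7:66390892-66427477, minus strand). In WT replicates 1 to 6 it was 0.212, 7.91, 31.9, 0.462, 0.815 and 0.237 CPM. In knockout replicates 1 to 7 it was 5.92, 144, 13.6, 1.04, 3.76, 2.12 and 36.1 CPM. WT replicates 2 and 3 lay inside the knockout range, and the other 4 WT lines lay below each knockout line. With a log2 fold change of 2.09 (SE 1.39), the difference was not called (edgeR adjusted p = 0.36). Leaving out 1 line moved the log2 fold change between 0.59 (without knockout replicate 2) and 3.94 (without WT replicate 3). These lines also held the most Acta2 of their groups, 2580 CPM in knockout replicate 2 and 39.7 CPM in WT replicate 3. Knockout replicate 7, next in Aldh1a3, was also next in Acta2 (207 CPM). Among WT lines the order differed. WT replicate 2, next in Aldh1a3, held 1.03 CPM of Acta2, and WT replicate 6 held 16.0 CPM with 0.237 CPM of Aldh1a3. The part of Acta2-rich cells in the Aldh1a3 level was not tested. In bulk RNA a change in the share of cells of a type cannot be told apart from a change in RNA per cell.

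Aldh1a7 lay between 0.0236 and 3.29 CPM in WT lines (median 0.601, 1 to 122 reads) and between 0.265 and 4.13 CPM in knockout lines (median 0.736, 11 to 186 reads). The ranges overlapped almost whole, with WT replicate 3 and knockout replicate 7 at the top of their groups. Its log2 fold change was 0.47 (SE 0.83, edgeR adjusted p = 0.76), and -0.11 without knockout replicate 7. In TPM, which allows levels of different genes to be compared, Aldh1a1 exceeded Aldh1a7 in all 7 knockout lines, from 2.13 to 15.0 times. In WT lines it was above Aldh1a7 in replicates 1 and 4 only, and the ratio went from 0.193 to 19.0. With the counts of Aldh1a1 and Aldh1a7 summed, so that any exchange of reads between them has no effect, the log2 fold change was 3.35 (edgeR adjusted p = 0.043). With 1 line omitted at a time the call was kept in 5 of 13 fits, and without knockout replicate 7 the value was 2.05 (adjusted p = 0.092). Without WT replicate 3 it was 3.99.

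**Figure D2:**
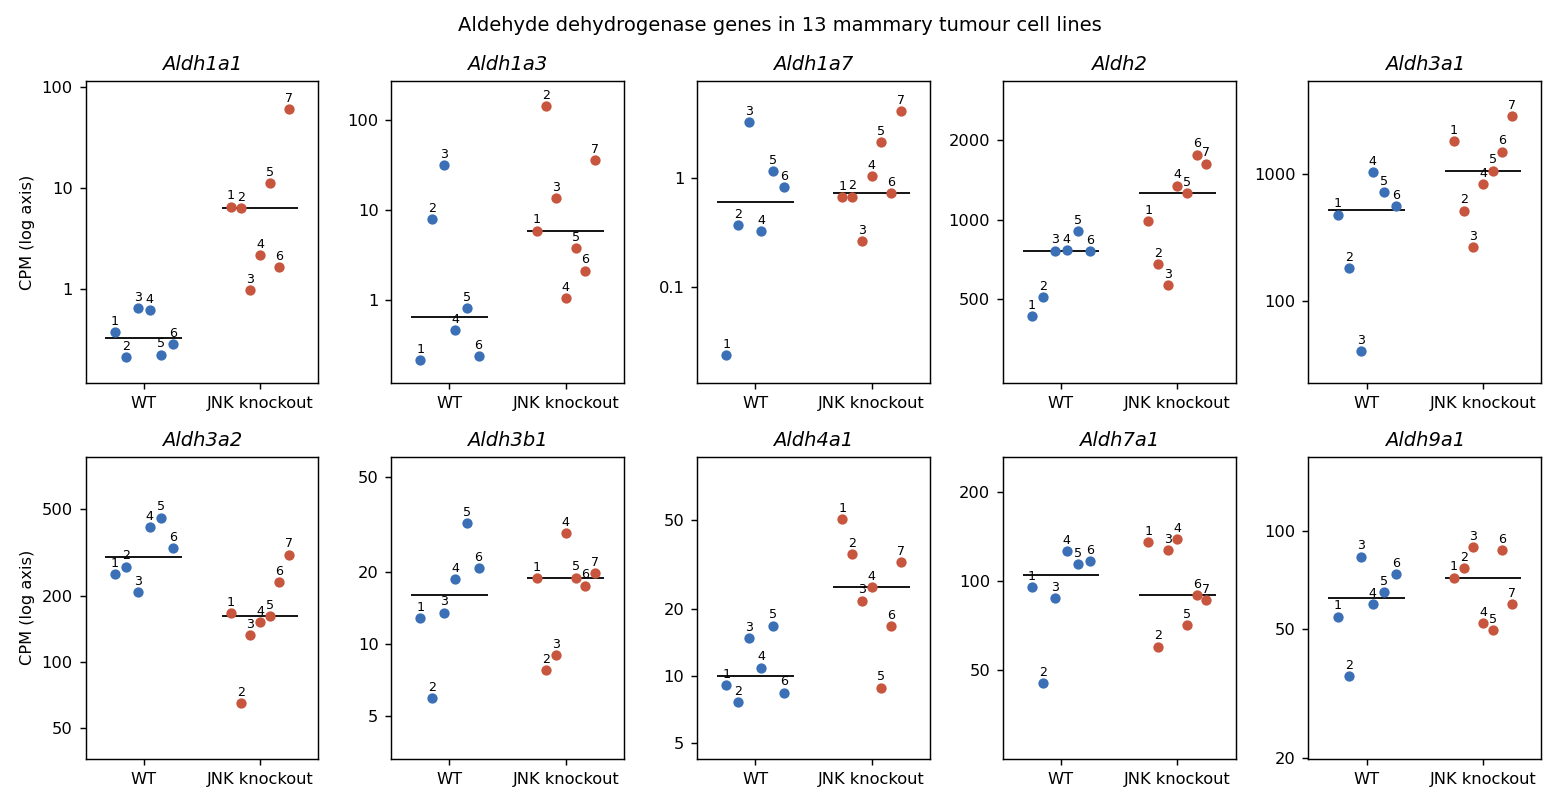
CPM on a log axis for each of the 10 members in the 6 WT (blue) and 7 knockout (red) lines, each point a line numbered by its replicate and each bar the group median. For Aldh1a1 the knockout lines, at 0.986 to 60.9 CPM, lie above the WT lines, at 0.211 to 0.647 CPM; for the other members the groups overlap.

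Aldh4a1 (chr4:139622871-139649691, plus strand) was the other member that passed. It was 9.07, 7.65, 14.7, 10.9, 16.8 and 8.42 CPM in WT replicates 1 to 6. In knockout replicates 1 to 7 it was 50.3, 35.0, 21.7, 24.9, 8.87, 16.7 and 32.4 CPM. Thus in CPM 5 of 7 knockout lines were above each WT line, while knockout replicates 5 and 6 lay within the WT range. In TPM knockout replicate 5 (3.07) lay below each WT line, the lowest of which was WT replicate 2 (4.32). The log2 fold change was 1.27 (SE 0.35, edgeR adjusted p = 0.040), or 2.41-fold, with a WT mean of 11.3 ± 3.70 CPM (SD, n = 6) and a knockout mean of 27.1 ± 13.6 CPM (SD, n = 7). This call was near the threshold. It was kept without WT replicate 5, knockout replicate 5 or knockout replicate 6 and lost without any of the other 10 lines, with adjusted p up to 0.081 and a log2 fold change from 1.06 to 1.42. With WT replicates 4 and 5 summed adjusted p was 0.055, and on log2(TPM + 1) it was 0.14.

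Aldh2 and Aldh3a1 made up most of the members' summed TPM. Together they held between 72.3% and 83.6% of it in WT lines and between 77.0% and 92.8% in knockout lines. Aldh2 (chr5:121566027-121593824, minus strand) was 432, 509, 765, 767, 907 and 763 CPM in WT replicates 1 to 6. In knockout replicates 1 to 7 it was 988, 679, 568, 1349, 1264, 1769 and 1634 CPM. In CPM the 5 knockout lines other than replicates 2 and 3 were above each WT line. In TPM, knockout replicates 1 (764) and 5 (690) lay below WT replicate 5 (824). The difference of 0.77 (SE 0.28) on the log2 scale did not pass (edgeR adjusted p = 0.098), while DESeq2 called it (adjusted p = 0.043). With limma on log2(TPM + 1) it was 0.48 and not called (adjusted p = 0.26).

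Aldh3a1 (chr11:61208510-61218418, plus strand) spanned a wide range among WT lines. It was 481, 182, 40.1, 1045, 722 and 559 CPM in WT replicates 1 to 6. In knockout replicates 1 to 7 it was 1828, 517, 265, 838, 1073, 1511 and 2880 CPM. In CPM knockout replicates 1, 5, 6 and 7 were above each WT line and the other 3 were inside the WT range. In TPM knockout replicate 5 (844) was also inside it, below WT replicate 4 (1354). The log2 fold change of 1.33 (SE 0.65) did not pass (edgeR adjusted p = 0.21), and none of the 25 alternative fits called it. WT replicate 3, lowest in Aldh3a1, was the WT line with the most Aldh1a3.

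Aldh3a2, which encodes the fatty aldehyde dehydrogenase, lies 4998 bases from Aldh3a1 (chr11:61223417-61267528, minus strand), and the coding sequences of this pair share 66.4% of aligned bases. It was 251, 272, 208, 411, 456 and 331 CPM in WT replicates 1 to 6. In knockout replicates 1 to 7 it was 167, 64.7, 133, 152, 162, 231 and 309 CPM. All knockout lines but replicates 6 and 7 were below each WT line. The log2 fold change of -0.89 (SE 0.30) did not pass (edgeR adjusted p = 0.081). Lower calls were made by DESeq2 (adjusted p = 0.031), by limma on log2(TPM + 1) (adjusted p = 0.033) and by edgeR without knockout replicate 7 (adjusted p = 0.043).

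In TPM, Aldh3a1 was between 0.415 and 5.44 times Aldh3a2 in WT lines (median 3.52). In knockout lines it was between 4.30 and 23.6 times Aldh3a2 (median 14.2). Only knockout replicate 3, at 4.30, lay inside the WT range. This ratio was formed after the values of both genes were seen and was not tested.

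**Figure D3:**
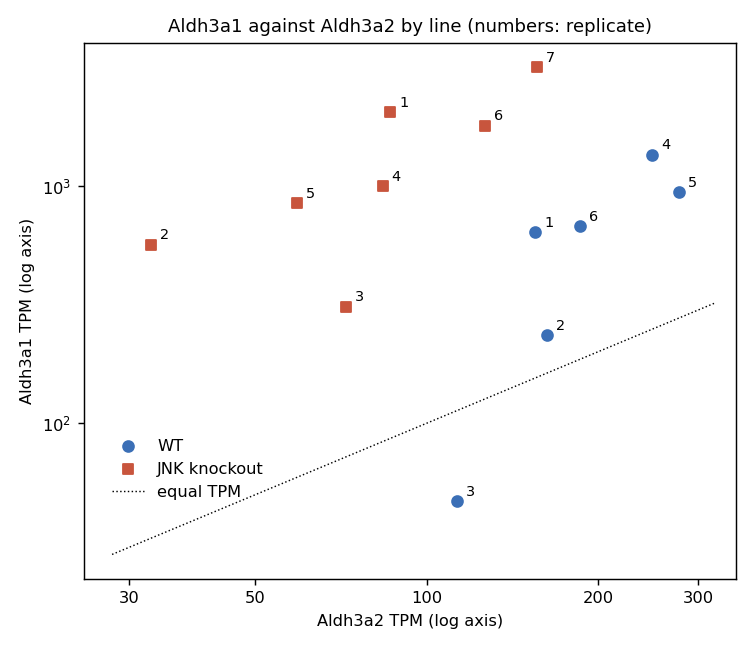
TPM of Aldh3a1 (vertical) against TPM of its neighbour Aldh3a2 (horizontal) in each line, both on log axes, with WT lines as circles, knockout lines as squares and equal TPM as a dotted line. Knockout lines hold 4.30 to 23.6 times as much Aldh3a1 as Aldh3a2 and lie above the dotted line, overlapping WT lines on each axis taken alone; WT replicate 3 lies below the dotted line at 0.415.

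The remaining members showed no difference that passed. Aldh3b1, which encodes a membrane-linked enzyme for lipid aldehydes, averaged 17.4 ± 8.90 CPM over WT lines (SD, n = 6) and 17.3 ± 7.20 CPM over knockout lines (SD, n = 7). Its log2 fold change was -0.00091 (SE 0.37, edgeR adjusted p = 1.00). Aldh7a1 averaged 97.3 ± 29.2 CPM over WT lines and 101 ± 32.0 CPM over knockout lines, with a log2 fold change of 0.05 (SE 0.25, edgeR adjusted p = 0.92). Aldh9a1 (chr1:167349963-167368530, plus strand) averaged 62.0 ± 16.5 CPM over WT lines and 69.6 ± 16.3 CPM over knockout lines, with a log2 fold change of 0.17 (SE 0.20, edgeR adjusted p = 0.64). For these 3 genes the standard errors leave room for modest changes either way. The sign of all 3 turned under some of the alternatives. WT replicate 2 was lowest of its group in each of them.

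By median TPM over the 13 lines of both groups, the order of the members was Aldh3a1 (844), Aldh2 (690), Aldh3a2 (127), Aldh7a1 (63.0), Aldh9a1 (42.3), Aldh3b1 (17.9), Aldh4a1 (8.69), Aldh1a3 (1.28), Aldh1a1 (0.88) and Aldh1a7 (0.65). Aldh2 (399 to 1456 TPM) and Aldh3a2 (at most 278 TPM) were the only neighbours in this order whose ranges over lines did not overlap. Aldh3a1, from 46.9 to 3165 TPM, covered the whole range of Aldh2. The order of the Aldh1a genes held in neither group alone. Their WT medians were 0.555 TPM for Aldh1a7, 0.36 TPM for Aldh1a3 and 0.32 TPM for Aldh1a1. Their knockout medians were 5.29 TPM for Aldh1a1, 2.85 TPM for Aldh1a3 and 0.65 TPM for Aldh1a7.

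The members' summed TPM was 1314, 920, 925, 2447, 2210 and 1647 in WT replicates 1 to 6. It was 3057, 1287, 1001, 2358, 1667, 3511 and 4749 in knockout replicates 1 to 7. Knockout replicates 1, 6 and 7 exceeded each WT line, and the other 4 overlapped the WT range. The knockout mean was 942 TPM above the WT mean (exact permutation p = 0.15, two-sided, over 1716 splits, n = 6 and n = 7). Without knockout replicate 7 the difference was 569.8 TPM. Aldh1a1 made up between 0.00996% and 0.0627% of this sum in WT lines. It reached at most 1.07% in knockout lines, in replicate 7.

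**Figure D4:**
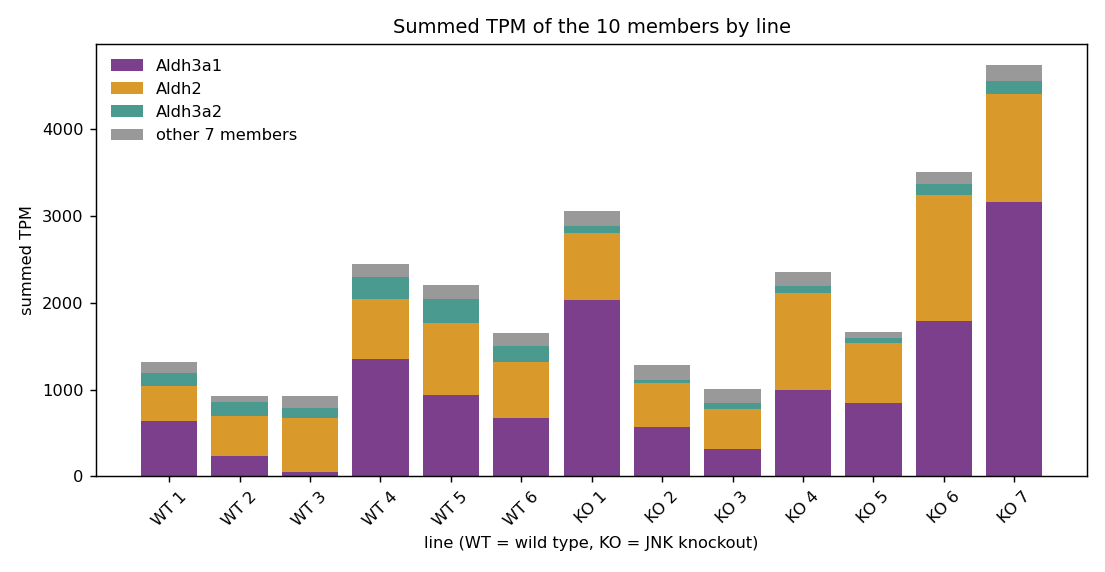
Summed TPM of the 10 members in each line, stacked by Aldh3a1, Aldh2, Aldh3a2 and the other 7 members. Sums run from 920 TPM (WT replicate 2) to 4749 TPM (knockout replicate 7), and Aldh3a1 is the thinnest share, 5.07%, in WT replicate 3.

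Lines differed in which members they held. Among WT lines, replicate 3 was highest for Aldh1a1, Aldh1a3, Aldh1a7 and Aldh9a1 and lowest for Aldh3a1 and Aldh3a2. WT replicate 5 was highest for Aldh2, Aldh3a2, Aldh3b1 and Aldh4a1, and WT replicate 2 was lowest for 5 members. Among knockout lines, replicate 7 was highest for Aldh1a1, Aldh1a7, Aldh3a1 and Aldh3a2. Knockout replicate 3 was lowest for Aldh1a1, Aldh1a7, Aldh2 and Aldh3a1. Knockout replicate 2, the line with least Epcam, was highest for Aldh1a3 and lowest for Aldh3a2, Aldh3b1 and Aldh7a1.

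For the members that passed, the genes with the most similar pattern over the 13 lines were taken by Spearman's rank correlation of CPM among 12347 named genes. For Aldh1a1 these were Elp5 (rho 0.97), Lyrm7 (0.96) and Rmdn1 (0.94). Lyrm7, an assembly factor of the respiratory chain, was between 0.374 and 1.08 CPM in WT lines and between 3.30 and 8.29 CPM in knockout lines. For Aldh4a1 they were Atp10d (rho 0.93), a lipid flippase gene, Gnai1 (0.93), which encodes an inhibitory G protein subunit, and Cyb5rl (0.92). The points share the genotype groups, so these values describe the 13 lines together and carry no p.

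Other genes of the family and of nearby pathways were read from lists. Over all genes tested, 4.33% were called higher and 4.17% lower. The table holds 10 other aldehyde dehydrogenases, of which 8 were tested, 1 rose and 0 fell, with a median log2 fold change of 0.15. The risen gene was Aldh18a1, which encodes the enzyme of the first steps of proline synthesis. It was between 53.5 and 86.5 CPM in WT lines and between 80.2 and 182 CPM across knockout lines (edgeR log2 fold change 0.73, SE 0.19, adjusted p = 0.030). Replicate 6 was the 1 knockout line not above each WT line. The call was lost without WT replicate 1, 2, 4 or 6, with adjusted p up to 0.064, and on log2(TPM + 1) (adjusted p = 0.11). Aldh1a2, the remaining retinaldehyde dehydrogenase, had too few reads for a test, 80 in the WT lines together and 6 in the knockout lines together. Aldh8a1 had 0 and 9 reads. The folate enzyme genes Aldh1l1 and Aldh1l2 did not pass (edgeR adjusted p = 0.51 and 0.36).

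Among 16 tested genes of retinoid metabolism and signalling 1 rose and 1 fell, against 4.33% and 4.17% of all genes. The median log2 fold change was 0.35. Rarb, a retinoic acid receptor gene, was 1.61, 19.1, 14.9, 1.12, 9.70 and 2.82 CPM in WT replicates 1 to 6. In knockout lines it was between 0.130 and 1.72 CPM. Only knockout replicates 1 and 3 reached the lowest WT lines. Its log2 fold change was -3.52 (SE 0.77, edgeR adjusted p = 0.015), a call kept in each of the 13 fits without 1 line but not with limma-voom (adjusted p = 0.065). Rdh12, a retinaldehyde reductase gene, rose from 0.474 ± 0.293 CPM (SD, n = 6) to 1.95 ± 1.44 CPM (SD, n = 7; edgeR adjusted p = 0.036). That call was kept in 5 of 13 fits without 1 line.

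Of 14 tested alcohol dehydrogenases and aldehyde reductases 2 rose and 0 fell, against 4.33% and 4.17% of all genes (median log2 fold change 0.20). Akr1b8, an aldo-keto reductase gene, was between 1.57 and 12.9 CPM in WT lines and between 18.9 and 99.5 CPM in knockout lines other than replicate 5, which was at 3.41 CPM. Its log2 fold change was 2.98 (SE 0.69, edgeR adjusted p = 0.020), called in each of the 13 fits without 1 line but neither with limma-voom (adjusted p = 0.088) nor on unfiltered log2(TPM + 1) (adjusted p = 0.073). Akr1a1, the aldehyde reductase gene, rose 1.43-fold (edgeR adjusted p = 0.036). The call was kept in 4 of 13 such fits.

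Of 8 tested genes of the aryl hydrocarbon receptor and its targets 1 rose and 0 fell (median log2 fold change 0.54). The shares over all genes were 4.33% and 4.17%. The risen gene was Ugt1a6b, a glucuronosyltransferase gene. Its WT mean was 3.74 ± 2.48 CPM (SD, n = 6) and its knockout mean 26.2 ± 29.0 CPM (SD, n = 7, edgeR adjusted p = 0.0497). The call was kept in 3 of 13 fits without 1 line. Without knockout replicate 2 its log2 fold change was 2.22 (adjusted p = 0.079), against 2.81 with it. Its counts were whole in 0 of 13 lines, so part of its reads was shared out among transcripts and the value is uncertain. The classic target Cyp1a1 had too few reads for a test (143 in WT and 12 in knockout lines). Cyp1b1, of the same list, had 12327 reads in WT and 47563 in knockout lines. Its log2 fold change was 1.75 (SE 0.72) and was not called (edgeR adjusted p = 0.14).

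Of 19 tested mammary stem and progenitor markers 1 rose and 1 fell, against 4.33% and 4.17% of all genes (median log2 fold change -0.44). Itgb3, an integrin of luminal progenitors, was between 2.36 and 144 CPM in WT lines and between 0.127 and 4.98 CPM across knockout lines (edgeR log2 fold change -4.10, SE 0.95, adjusted p = 0.020). Without WT replicate 3 its log2 fold change was -2.98. Bcl11b, a transcription factor gene of basal stem cells, was at most 0.620 CPM in WT lines and between 0.514 and 15.2 CPM in knockout lines, with log2 fold change 4.89 (SE 1.14, edgeR adjusted p = 0.021). For Bcl11b it was 6.44 without WT replicate 3 and 4.05 without knockout replicate 2. Both were called in each of the 13 fits without 1 line, but Itgb3 not with limma-voom (adjusted p = 0.11) and Bcl11b not on log2(TPM + 1) (adjusted p = 0.096). Beside this, basal epithelial markers (8 genes) summed to between 69.3 and 310.0 TPM in WT and between 578 and 23391 TPM in knockout lines, at most 5383 TPM without replicate 2. Their part in the Aldh1a1 difference was not tested. The log2 fold change of Aldh1a1 was 5.32, and called, without knockout replicate 2 and WT replicate 3 together.

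**Figure D5:**
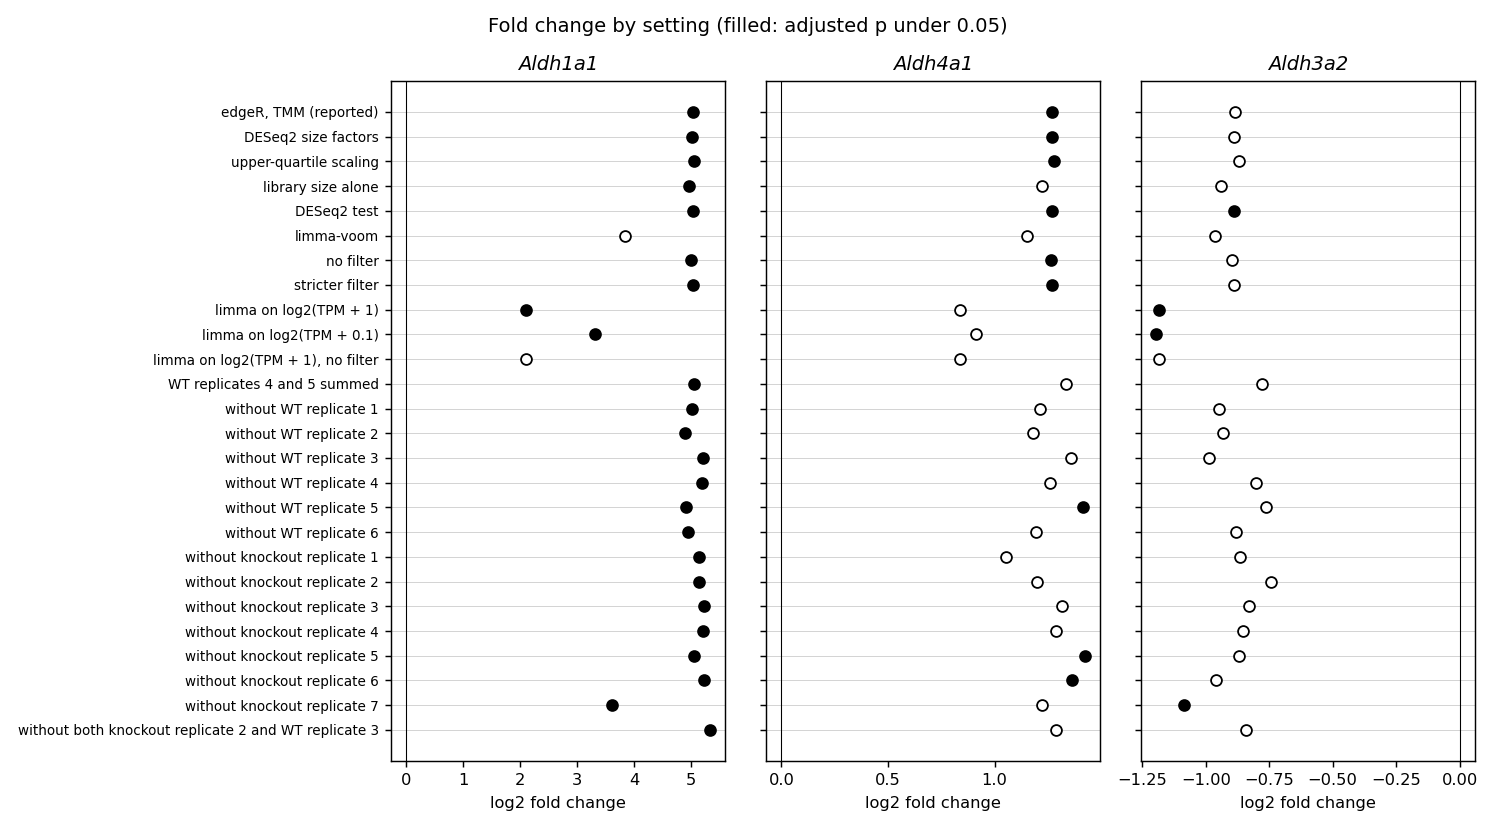
Log2 fold change (horizontal) of Aldh1a1, Aldh4a1 and Aldh3a2 in the reported fit and under each of 25 alternatives (vertical), filled where adjusted p was under 0.05. Aldh1a1 is filled in all but 2 alternatives, Aldh4a1 in 8 of 25, and Aldh3a2 is on the negative side throughout.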

How the data were processed

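Expected counts per gene and TPM were deposited for the same 13 lines. The submitters' processing notes name cutadapt, RSEM, mm10 and GRCm38, so the deposited expected counts are the authors' model-based assignments of reads to genes. The deposited TPM values are scaled for length by the authors. The aligner, annotation release, strand setting and versions were not given in the sources used here. RefSeq accessions name the table's transcripts. Symbols were unique.

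Expected counts were rounded to whole numbers. The filterByExpr function kept 13058 genes and TMM factors scaled the libraries. Knockout was compared with WT by edgeR's quasi-likelihood F test (edgeR 4.0.16, R 4.3.3) with genotype as the only term. Adjustment was by Benjamini-Hochberg over all genes. The standard error is the log2 fold change divided by the square root of F. The test was checked on simulated data. Alternatives used DESeq2 1.42.0, limma 3.58.1, other scalings, filters and TPM with a pseudocount of 1 or 0.1, and left out each line. The samples' replicate numbers come from the order of deposition and pair nothing. Removal of knockout replicate 2 together with WT replicate 3 was added after seeing the data. Members and lists were chosen with earlier results of these data known. All members were named, and of each list up to 4 members past the threshold with the lowest adjusted p. For each called member the 3 named genes closest in rank correlation were taken. Aldh1a2, Aldh8a1, Aldh1l1, Aldh1l2, Cyp1a1, Cyp1b1, Ptprc, Cd68, Epcam, Cdh1, Oxtr and Acta2 were picked after their values were seen. Positions and promoters are RefSeq's for GRCm38.p6, and coding sequences GENCODE's, aligned with Biopython 1.88.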

Additional observations from a re-analysis of the deposited data

Results flagged for a closer look

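In a group of lines, a value was singled out where its gap to the nearest line was a large part of the group's range (Dixon's test at 95%). Of 22 groups of values checked, 4 gave such a line, each at a high CPM. The test's nominal rate of 1 in 20 assumes values spread normally. CPM was not put on a log scale for it, so the count cannot be set against chance. Knockout replicate 7 held 60.9 CPM of Aldh1a1, against 11.3 CPM in the next knockout line. Knockout replicate 2 held 144 CPM of Aldh1a3, against 36.1 CPM in the next. WT replicate 3 held 31.9 CPM of Aldh1a3, against 7.91 CPM, and 3.29 CPM of Aldh1a7, against 1.16 CPM in the next WT line.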

How the results depend on the processing

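No paired analysis was possible because the labels give no replicate numbers that groups share. Aldh1a1 was higher in knockout lines in all 25 alternatives and past the threshold in 23, with limma-voom and limma on log2(TPM + 1) without a filter as the exceptions. The number of members called higher (2 as reported) was 1 with library size alone, on log2(TPM + 1), on log2(TPM + 0.1), with WT replicates 4 and 5 summed, and without both knockout replicate 2 and WT replicate 3. It was 3 with the DESeq2 test (Aldh2 added), 0 with limma-voom and on unfiltered log2(TPM + 1), and 1 to 2 when each line was left out. The number called lower (0 as reported) was 1 with DESeq2, on log2(TPM + 1) and on log2(TPM + 0.1), and 0 to 1 when each line was left out. Over all genes, 566 higher and 545 lower calls became 1130 and 977 with DESeq2, 286 and 998 on log2(TPM + 1), and 322 and 981 on log2(TPM + 0.1). Unfiltered log2(TPM + 1) gave 227 higher and 780 lower. Leaving out 1 line gave 324 to 649 higher and 316 to 592 lower, with 374 higher without WT replicate 1, 375 without knockout replicate 3, 329 and 316 without knockout replicate 1, and 324 and 326 without knockout replicate 7. The median over all genes was -0.19 and -0.23 in the filtered TPM fits.

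The log2 fold change of Aldh1a1 and Aldh1a7 summed was no longer called with limma-voom (2.61), on log2(TPM + 1) (1.67), on log2(TPM + 0.1) (2.27) or with WT replicates 4 and 5 summed (3.31), and ranged from 2.05 to 3.99 without 1 line. The difference of summed TPM ranged from 570 to 1194 without 1 line and never passed. Signs turned for genes near 0. Aldh3b1 was at 0.0082 with upper-quartile scaling, 0.035 with limma-voom, 0.14 with WT replicates 4 and 5 summed, 0.062 without both knockout replicate 2 and WT replicate 3, and between -0.18 and 0.27 without 1 line. Aldh7a1 was at -0.16 on log2(TPM + 1), with and without the filter, and on log2(TPM + 0.1), and between -0.094 and 0.15 without 1 line. Aldh9a1 was at -0.048 on log2(TPM + 1), with and without the filter, and at -0.050 on log2(TPM + 0.1). Aldh1a7 ranged from -0.11 to 1.34 without 1 line and was 1.46 without both knockout replicate 2 and WT replicate 3, where the summed Aldh1a1 and Aldh1a7 gave 4.11. The cause of these turns was not tested. Depth limits Aldh1a1 and Aldh1a7, with as few as 9 and 1 reads in a WT line.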
